A study of Mus musculus with 2 samples.

Results

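Mir132 and Mir212 are a pair of microRNA hairpin genes that lie next to each other in 1 noncoding transcription unit. Both rows were found by their Ensembl identifiers in the count tables, so the pair makes up 2 of 1973 genes listed. Both passed the detection minimum of 10 sense counts in each library, as did 385 genes in all. The tissue was hindbrain, taken at embryonic day 16.5 from healthy embryos of the mouse strain B6NCrl, with male and female embryos pooled. There was 1 group of 2 libraries, labelled as biological replicates 1 and 2, and no treated, mutant or later group. Replicate 2 was pooled from 37 embryos, while for replicate 1 the labels say only that it was pooled.

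MicroRNAs are short RNAs cut from hairpin precursors. They guide repression of messenger RNAs that pair with the seed, bases 2 to 8 of the mature strand. In neurons, transcription of their shared unit is induced by the activity-dependent factor CREB, for instance after brain-derived neurotrophic factor or synaptic stimulation. miR-132 is known for roles in dendrite growth and spine shape. Only small RNA was sequenced here, so neither CREB activity nor any target was measured.

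The sequences below are shown because the pair shares a seed and because their uniqueness decides how reads could be counted. They are the mature strands in the RefSeq table for GRCm38.p6, which held 4 mature strands for the pair, and capitals mark the seed.
mmu-miR-132-3p: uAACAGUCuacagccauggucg
mmu-miR-212-3p: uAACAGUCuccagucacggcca
mmu-miR-132-5p: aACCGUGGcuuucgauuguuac
mmu-miR-212-5p: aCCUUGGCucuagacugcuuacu
The 3p strands carry the same seed, AACAGUC, and no other strand among the 1738 in the table has it. They are identical over the first 9 bases and differ at 5 of 22 positions. Counted from the 5′ end, with the miR-132-3p base first, the differences are A10C, C14U, U17C, U20C and G22A. The 5p strands have different seeds, each found on no other mature strand of the table. At their best ungapped alignment, with a shift of at most 2 bases, they differed at 7 of 21 positions. None of the 4 strands occurs in another hairpin of the table. The closest strand outside the pair had 7 mismatches for miR-132-3p and 8 for miR-212-3p, and in both cases it was mmu-let-7f-2-3p.

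The hairpins are shown in full to place the 3p strand, in capitals, within each precursor (GRCm38.p6, plus strand).
Mir212, chr11:75173388-75173478: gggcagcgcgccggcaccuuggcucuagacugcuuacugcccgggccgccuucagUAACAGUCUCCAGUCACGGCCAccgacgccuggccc
Mir132, chr11:75173682-75173747: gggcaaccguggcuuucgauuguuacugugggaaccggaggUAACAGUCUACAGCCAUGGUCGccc
Mir132 (ENSMUSG00000065537.1) has 66 bases and Mir212 (ENSMUSG00000065590.1) has 91, and 203 bases lie between them. GENCODE M21 places both in intron 1 of the noncoding gene 1700016P03Rik, on the same strand, from 75172598 to 75173977 (mm10). Mir212 is the first of the pair in the direction of transcription, starting 828 bases after the annotated start of 1700016P03Rik. Mir132 ends 230 bases before exon 2. The flanking protein-coding genes on the minus strand are Hic1, a transcriptional repressor, and Ovca2. The Mir212 hairpin had a GC content of 69.2%, which only 9 of 329 detected hairpins in the RefSeq table exceeded, and the Mir132 hairpin had 57.6%, which 67 exceeded. The folding energy computed with RNAfold was -37.2 kcal/mol for Mir132 and -41.5 kcal/mol for Mir212. Per base this came to -0.564 for Mir132 and -0.456 for Mir212, with a median of -0.435 over the detected hairpins.

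The libraries held 5097205 sense counts in replicate 1 and 4460836 in replicate 2. Multimapping reads, which the deposited tables give only as a total, made up 34.5% and 35.1% of all reads. MicroRNAs expected of the tissue were present, with the hindbrain markers Mir10a and Mir10b summing to 100993 and 85868 CPM (sense counts per 1000000 of the library). All 4 neural markers were detected, with summed levels of 12135 and 10512 CPM. Most of that sum was Mir137, at 9157 CPM in replicate 1 and 7199 CPM in replicate 2. Mir124a-1 was by far the lowest of the 4, so the sum says little about it. It lay near the bottom of the detected range, where the lowest level was 2.10 CPM. Mir124a-1 is a copy of a multi-copy microRNA, and reads that match several copies fall in the multimapping total. Its low level is therefore not the level of miR-124 in the tissue. The libraries stood apart in the skeletal muscle markers Mir206 and Mir133b, whose summed level was 375 CPM in replicate 1 but 24.9 CPM in replicate 2. Other non-neural lists were closer, with the erythroid markers at 216 and 206 CPM and the vascular markers at 34616 and 36347 CPM.

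Mir132 was a moderately abundant microRNA of the hindbrain. It had 6415 sense counts in replicate 1 and 6073 in replicate 2. This is 1259 CPM (exact binomial 95% interval 1228 to 1290) and 1361 CPM (1327 to 1396), or 1310 ± 72.7 CPM (SD, n = 2). The intervals, which cover counting error only, do not overlap. By mean level Mir132 ranked 89 of the 385 detected genes, 8.72-fold above their median of 150.2 CPM. Mir99a, the most abundant gene, was 134.9-fold higher. Multimapping reads are in no gene's counts, so ranks and folds here and below hold among uniquely mapped reads. Hairpins with copies at other loci may therefore rank too low. In tissue RNA of this kind, fewer cells that make a microRNA and less of it per cell cannot be told apart.

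Mir212 had far fewer reads than Mir132. It had 348 and 327 sense counts, which is 68.3 CPM (exact binomial 95% interval 61.3 to 75.8) in replicate 1 and 73.3 CPM (65.6 to 81.7) in replicate 2. The mean was 70.8 ± 3.56 CPM (SD, n = 2), and here the 2 intervals overlap. Mir212 ranked 238 of 385, at 0.471 of the median detected gene. A count of 0 would have allowed up to 3 counts, 0.589 CPM in replicate 1 or 0.673 CPM in replicate 2, so Mir212 was well inside the measurable range. In the plot of ranked levels, the Mir132 values lie in the upper part of the curve and the Mir212 values past its middle.

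**Figure D1:**
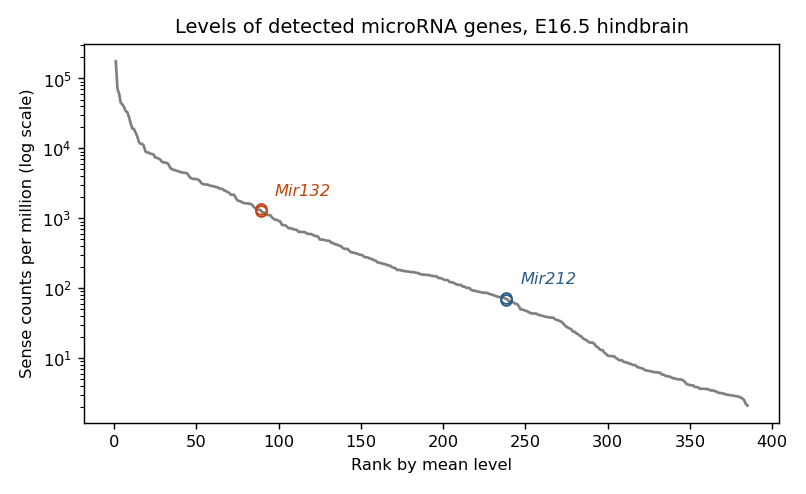
Mean level of each of the 385 microRNA genes detected in both libraries (grey line; sense CPM, log scale) against its rank. Open circles give the 2 libraries for Mir132, at rank 89 with 1259 and 1361 CPM, and for Mir212, at rank 238 with 68.3 and 73.3 CPM.

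The place in this order was not sharp at either level. The next gene above Mir132 was Mir134, at 1324 ± 27.3 CPM, a difference smaller than the SD of Mir132 (SD, n = 2). The next below was Mir532, at 1212 ± 60.7 CPM, which was lower than Mir132 in both libraries but by little in replicate 1, with 1259 CPM for Mir132 and 1255 CPM for Mir532. Mir212 sat between Mir144, an erythroid microRNA, at 72.7 ± 16.2 CPM and Mir146 at 69.5 ± 3.52 CPM, and neither differed from it beyond their SD. By Euclidean distance of log2(CPM + 1) over the 2 libraries, the genes most like Mir132 were Mir134 (0.055), Mir370 (0.114) and Mir128-2 (0.171). Those most like Mir212 were Mir146 (0.148), Mir34b (0.159) and Mir190a (0.160). With 2 libraries this measures similar level and no more.

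Although they share a transcription unit, the hairpins gave very unequal numbers of reads. Mir132 had 18.4-fold the counts of Mir212 in replicate 1 and 18.6-fold in replicate 2. On the log2 scale the ratio of Mir132 over Mir212 was 4.20 (exact binomial 95% interval 4.05 to 4.36) in replicate 1 and 4.22 (4.05 to 4.38) in replicate 2. The mean was 4.21 ± 0.0076 (SD, n = 2), beyond the limit of 2 SD with the same sign in both libraries. The SDs of this ratio and of the share below are far narrower than the counting intervals of each library. Meeting the 2 SD limit therefore adds little to those intervals. With 2 libraries, the smallest p that an exact sign-flip test allows is 0.5. Mir212 supplied 5.13% ± 0.0256 of the counts of the pair, whose summed level was 1327 CPM in replicate 1 and 1435 CPM in replicate 2. Divided by hairpin length, the log2 ratio was 4.67 in place of 4.21. The mature strands of both hairpins are 22 or 23 bases long, so counts need not scale with hairpin length. Reads of either arm are counted for their hairpin, so these data do not tell 5p from 3p strands. The ratio is one of reads, and how reads of the 2 sequences relate to numbers of molecules was not tested.

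The ratio hardly moved between the pools of embryos. Its log2 value differed by 0.01 between replicate 2 and replicate 1, with a counting 95% interval from -0.21 to 0.23 (Fisher's exact test, two-sided, p = 0.937). The counts of Mir212 set that interval, and a change within it was not detectable at this depth.

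Relative to other hairpins, Mir132 was slightly higher in replicate 2, and it was the 1 of the 2 members that passed the test of the libraries. After TMM scaling Mir132 had a log2 ratio of replicate 2 over replicate 1 of 0.18 (95% interval 0.13 to 0.23) with an adjusted p = 3.15e-11 in the exact binomial test with Benjamini-Hochberg adjustment. Of 401 genes tested, 186 or 46.4% passed, with 88 (21.9%) higher in replicate 2 and 98 (24.4%) higher in replicate 1, so a call is common. Plain totals in place of TMM scaling gave 62 genes higher in replicate 2 and 131 higher in replicate 1. The test allows for counting noise only and compares these libraries. Mir212 had almost the same log2 ratio, 0.17 (interval -0.05 to 0.39), with an adjusted p = 0.233 in the same exact binomial test and far fewer counts than Mir132.

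The shift of Mir132 was not large among microRNAs. Of the 401 genes, 190 had a smaller absolute log2 ratio than Mir132 and 176 a smaller one than Mir212, and the median was 0.18. When edgeR's exact test was given a biological coefficient of variation of 0.1, an assumed value that allows for spread between pools, neither member passed (adjusted p = 0.965 for Mir132 and 0.975 for Mir212), and 7 genes or 1.75% did. The skeletal muscle marker Mir206 moved the other way, being higher in replicate 1. Its part in the shift of the pair was not tested. The plot of library ratios shows both members just above 0.

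**Figure D2:**
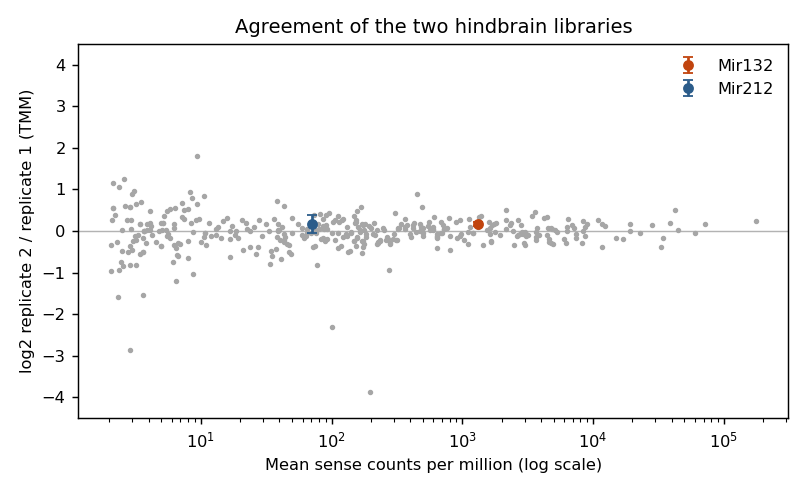
Log2 ratio of replicate 2 over replicate 1 after TMM scaling against mean level (sense CPM, log scale) for the 401 tested genes (grey points). Mir132 at 0.18 and Mir212 at 0.17 are shown with exact binomial 95% intervals, and the interval of Mir212 includes 0.

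Unequal counts from adjacent hairpins were frequent in these libraries. Among 63 pairs of next-neighbour microRNA genes on 1 strand whose starts lie within 1000 bases, all detected in both libraries, the absolute log2 ratio within the pair had a median of 2.77. The value of 4.21 for Mir132 and Mir212 ranked 21 of 63. The largest was 10.4, for Mir449b and Mir449a, hairpins of a cluster of multiciliated cells. Mir449b lay close to the minimum of 10 counts, so that ratio is imprecise. Some of these hairpins share a mature sequence with another locus, and their counts are uncertain. Among the 47 pairs in which no mature sequence lies in another hairpin of the RefSeq table, a selection made after the data were seen, Mir132 and Mir212 ranked 14, with a median of 2.73.

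Between libraries, the ratio of Mir132 to Mir212 in sense counts changed less than that of any other of the 63 pairs. The change was 0.01, against a median of 0.19, and the next smallest were 0.018 for Mir296 and Mir298 and 0.018 for Mir666 and Mir543. With unstranded counts the change was 0.027 and held place 3 from the smallest. Counting error alone gives the Mir132 and Mir212 change a standard error of 0.11, so its place at the end of the order is within what counting can move. Pairs within 1 cluster share hairpins and are not independent.

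**Figure D3:**
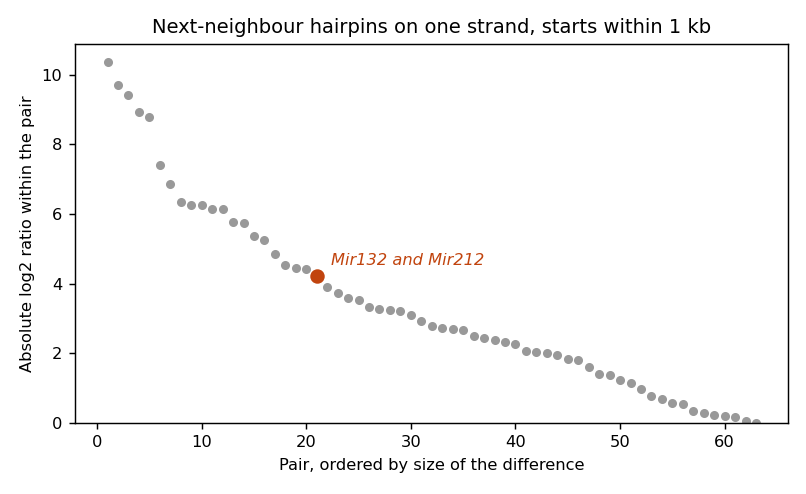
Absolute log2 ratio of sense counts within each of 63 pairs of next-neighbour hairpins, mean of 2 libraries, ordered by size. Mir132 and Mir212, at 4.21, hold place 21. The pairs range up to 10.4, for a pair in which Mir449b lay close to the minimum count.

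No other counted microRNA gene lay close to the pair. The nearest on the side of lower coordinates was Mir6926, 305193 bases away, with 3 and 1 sense counts. On the other side it was Mir22, 289968 bases away on chromosome 11, at 6441 ± 746 CPM (SD, n = 2), higher than Mir132 in both libraries.

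Other microRNAs linked to neuronal activity, synapses or sensory input were also present, mostly above Mir212. The list held 22 genes, Mir132 and Mir212 included, chosen from general knowledge with earlier results of these data known. All 22 were detected, with a median level of 1170 CPM, against 150.2 CPM over all detected genes. Mir132 ranked 11 and Mir212 ranked 21 of the 22 by level. By the RefSeq table, a mature sequence of at least 7 list members is also found in another hairpin. These are the Mir138, Mir181a and Mir219a copies and Mir125b-2, so their own levels are uncertain. The check looked for each listed mature sequence whole, so the level of Mir125b-1, the other listed copy, may be uncertain too.

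The highest list members exceeded Mir132 several times over. Mir137, a microRNA of neuronal differentiation and synapses, had 9157 CPM in replicate 1 and 7199 CPM in replicate 2. The Mef2-driven cluster of the imprinted Dlk1-Dio3 region was represented by Mir381 at 4895 ± 16.7 CPM, Mir379 at 2842 ± 131 CPM, Mir134 at 1324 ± 27.3 CPM, Mir485 at 429 ± 27.6 CPM and Mir329 at 212 ± 12.3 CPM (SD, n = 2). Mir134, which represses Limk1 at dendrites, differed from Mir132 by less than the SD of Mir132.

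Members near or below Mir132 included Mir188 at 953 ± 84.5 CPM and Mir138-1, whose product limits spine size, at 1029 ± 136 CPM (SD, n = 2). Mir29a reached 175 ± 7.27 CPM. Mir184 was the lowest at 19.3 ± 2.18 CPM, the only list member under Mir212. The sensory Mir183 and Mir182 reached 1768 ± 78.1 and 1439 ± 284 CPM, above Mir132 on average. In replicate 2, however, Mir132 had 1361 CPM and Mir182 1238 CPM. The sensory Mir96 was lower than Mir132 in both libraries, at 499 ± 46.5 CPM.

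In the exact binomial test of the libraries, 14 of the 22 list members passed, 6 higher in replicate 2 and 8 higher in replicate 1. Of all 401 genes tested, 186 (46.4%) passed. With only genes of a summed count of at least 100 tested, a minimum that all 22 met, 181 of 304 passed. A call was thus common among well-counted genes in general. After TMM scaling the 6 higher in replicate 2 were Mir132, Mir134, Mir329, Mir381, Mir485 and Mir181a-1, by log2 ratios from 0.06 for Mir381 to 0.30 for Mir181a-1. Those higher in replicate 1 included Mir137 (-0.28), Mir182 (-0.34) and Mir219a-1 (-0.36). With plain totals 14 also passed, but 3 were higher in replicate 2 (Mir132, Mir181a-1 and Mir485) and 11 in replicate 1, and Mir381 had a log2 ratio of -0.01 and did not pass. The median log2 ratio after TMM scaling was -0.03 over the list and 0.00 over all genes tested.

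**Figure D4:**
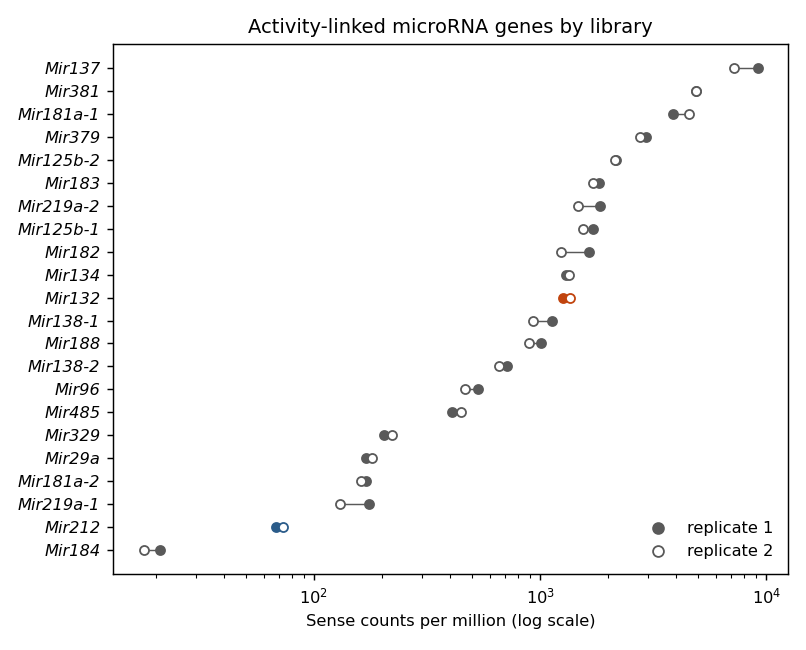
Levels of the 22 activity-linked microRNA genes in each library (CPM, log scale; filled circles replicate 1, open circles replicate 2), ordered by mean level. Mir132 lies in the middle of the list next to Mir134, and Mir212 lies next to last, above Mir184.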

How the data were processed

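Small RNA libraries from 2 pools of hindbrain were analysed as 1 group, so no condition was compared. Gene by gene, the authors deposited raw read counts, on mm10 with GENCODE M4 per the text file deposited with each library. Aligner and counter: not given in the sources used here. Of the columns for single strands, that with the larger total was taken as sense, and the 4 summary lines stayed out of the totals (52.6% and 53.0% of all reads). Names and coordinates come from GENCODE M21, which matched 1894 of 1973 genes. The M4 spans were not checked.

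The members and lists were chosen with earlier results of these data known. Named are the pair, the activity-linked list, the nearest microRNA genes by position, the 3 genes most alike in level, genes with the same seed, and the most abundant gene. The neighbours in rank, tissue markers and hairpin pairs beyond these were named after their values were seen. Libraries were compared over genes whose counts summed to 20 or more, at an adjusted p of 0.05. The libraries differed by more than sampling noise and were counted as 2 samples. The test was checked on simulated data that held counting noise only, so the check does not cover spread between pools. Intervals are at 95% and cover counting error only, because no molecular identifiers tell reads of 1 molecule apart. Alternatives were TMM and DESeq2 scaling, other totals, unstranded counts, count minimums, distances, each replicate alone and edgeR. Software was edgeR 4.0.16 and DESeq2 1.42.0 in R 4.3.3, scipy 1.17.1, pandas 2.3.3, numpy 2.4.6 and matplotlib 3.10.9 in Python 3.11.15, and RNAfold 2.7.2.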

Additional observations from a re-analysis of the deposited data

Results flagged for a closer look

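Mir212 had 4 counts on the opposite strand in replicate 1, a column outside the main measurement, against the limit of 3 counts that a count of 0 allows. It had 0 in replicate 2, and Mir132 had 0 in both libraries. Opposite-strand counts were not particular to Mir212. Replicate 1 held 125700 of them beside 5097205 sense counts, and Mir212 had 348 sense counts there.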

How the results depend on the processing

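Levels moved with the total used. Without the most abundant gene in the total, Mir132 stood at 1592 CPM and Mir212 at 86.0 CPM, and with multimapping reads added to it at 746 and 40.3 CPM. TMM scaling, DESeq2 size factors and unstranded counts kept both levels within 1 SD. With 2 libraries, each library alone lies within 1 SD of the mean by construction. Left-out libraries gave 1259 to 1361 CPM for Mir132 and 68.3 to 73.3 CPM for Mir212, a log2 ratio of Mir132 over Mir212 of 4.20 to 4.22, and ranks of 87 for Mir132 and 232 to 238 for Mir212. The ratio was 4.20 with unstranded counts and 4.67 per base of hairpin, a setting chosen after seeing the data. Its place among neighbouring pairs was 27 of 79 with at least 1 count, 16 of 52 with at least 50 counts, 15 of 44 within 500 bases, 34 of 97 within 10000 bases and 14 of 47 without shared mature sequences, where the number of pairs differs by construction. With edgeR's exact test at the assumed coefficient of 0.1, Mir132 kept a log2 ratio of 0.18 but lost its call (adjusted p = 0.965; 2.39e-11 to 3.70e-05 under the other settings), and the number of genes called was 7 in place of 186. Plain totals split the calls into 62 genes higher in replicate 2 and 131 higher in replicate 1, and Mir132 kept its call at a log2 ratio of 0.11. Unstranded counts gave a change of the pair ratio between libraries of 0.027 in place of 0.011. TMM scaling moved log2 ratios by 0.06. No paired analysis was possible because there is 1 group. The low counts of Mir212 limit what the ratio can show.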
